A study of Mus musculus with 7 samples.

Results

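Shared intragenic regions are stretches of mouse liver chromatin that were open to 3 nucleases, lie inside the body of a protein-coding gene and are set apart from promoters. Chromatin was cut with Benzonase or Cyanase in pulverized frozen liver, at 0.25, 1 and 4 U with 1 sample per amount, and with DNase I in nuclei of fresh liver, for which the labels give 1 sample and the header of the list names 2 pooled libraries. All samples were liver of male C57BL/6 mice aged 8 weeks, with no treatment or allele given. Hotspots, the stretches in which sequenced cut ends pile up over the local background, were called by the authors after pooling by nuclease, so that there was 1 list for each nuclease, with positions on mm9 and no tag numbers. The depth behind a hotspot is therefore unknown, no spread between replicates can be given, and the fresh or frozen state of the tissue cannot be told apart from the nuclease.

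The regions were chosen by the measured hotspot positions. Hotspots of the 3 lists on chromosomes 1 to 19 (69897 for DNase I, 59040 for Benzonase and 55904 for Cyanase) were merged where they overlapped by 1 bp or more, which gave 90879 regions. Hotspots of all 3 lists were present in 36943 of these, and 34409 of those were under 2000 bp wide. After 9010 regions within 1 kb of the transcription start site (TSS) of a protein-coding transcript and 11785 regions outside every transcript body were set aside, 13614 shared intragenic regions remained, made of 41791 hotspots. They were 36.5% of the 37343 regions of any combination of lists that met the same limits on width and place. At least 1 of them was found in 5307 of 19484 genes with eligible bases, that is, bases of the body over 1 kb from every protein-coding TSS, or 27.2%. These shares follow from the rule that chose the regions and are descriptions.

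Regions of open chromatin inside genes are often enhancers, which are short stretches bound by transcription factors that act on a promoter at a distance, frequently from an intron of the gene itself or of a neighbour. Nucleases cut such DNA readily because nucleosomes are displaced where factors bind. In hepatocytes, the main cells of the liver, known factors at enhancers include FOXA proteins, HNF4 and HNF1, C/EBP proteins and nuclear receptors, many of which bind sites built from the site AGGTCA.

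Sequences of 6 shared intragenic regions are shown because their central 300 bp, taken about the stretch open to all 3 nucleases, held the most different motifs among the regions in the liver and clock gene lists used below, with 1 region per gene. They are given 5′ to 3′ on the plus strand of mm9, and capitals mark every match to 1 of 13 short motifs, on either strand. Stat5b encodes a signal transducer of growth hormone receptors. Its region lies in the first intron, 10813 bp from the nearest TSS, and the printed window is chr11:100694805-100695104.
Stat5b: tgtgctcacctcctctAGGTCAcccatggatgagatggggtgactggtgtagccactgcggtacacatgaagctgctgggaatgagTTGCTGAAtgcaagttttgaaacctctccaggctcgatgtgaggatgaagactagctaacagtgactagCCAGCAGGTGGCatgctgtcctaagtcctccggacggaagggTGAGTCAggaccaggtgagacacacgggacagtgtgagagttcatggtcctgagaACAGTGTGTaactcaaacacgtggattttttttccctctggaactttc
The matches in the Stat5b window, from left to right, are the nuclear receptor site (AGGTCA), C/EBP (TTGCTGAA), CTCF (CCAGCAGGTGGC), AP-1 (TGAGTCA) and glucocorticoid receptor (ACAGTGTGT). The DNase I hotspot ran from 100694655 to 100695347, that of Benzonase from 100694657 to 100695252 and that of Cyanase from 100694656 to 100695265. The 3 starts thus lay within a few bases of each other, while the DNase I hotspot reached further to the right.

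Igf1 encodes insulin-like growth factor, which the liver secretes under growth hormone. This window lies in a later intron, 23709 bp from the nearest TSS, at chr10:87348247-87348546.
Igf1: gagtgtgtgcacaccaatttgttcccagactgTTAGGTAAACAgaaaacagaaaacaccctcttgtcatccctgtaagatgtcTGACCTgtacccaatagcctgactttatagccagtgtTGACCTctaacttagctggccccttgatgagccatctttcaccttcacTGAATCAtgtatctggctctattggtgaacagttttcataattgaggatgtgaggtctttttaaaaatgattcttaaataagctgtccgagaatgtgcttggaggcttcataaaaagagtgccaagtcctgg
It holds a PAR bZIP match (TTAGGTAA) that shares bases with a FOXA match on the other strand (GTAAACA), a pair of AGGTCA sites on the other strand (TGACCT) and an AP-1 match (TGAATCA). The hotspots were wider here, from 87347845 to 87348969 for DNase I, 87347813 to 87349001 for Benzonase and 87347783 to 87348948 for Cyanase.

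Abca1 encodes the transporter that loads cholesterol onto high-density lipoprotein. The window at chr4:53143893-53144192 lies in a later intron, 28363 bp from a TSS.
Abca1: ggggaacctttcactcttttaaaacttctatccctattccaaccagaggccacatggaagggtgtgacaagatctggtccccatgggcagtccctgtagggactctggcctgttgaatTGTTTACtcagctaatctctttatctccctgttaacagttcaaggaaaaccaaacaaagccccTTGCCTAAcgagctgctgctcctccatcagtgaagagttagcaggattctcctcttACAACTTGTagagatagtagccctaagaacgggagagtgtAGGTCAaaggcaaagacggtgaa
Capitals mark FOXA (TGTTTAC), C/EBP (TTGCCTAA), glucocorticoid receptor (ACAACTTGT) and nuclear receptor (AGGTCA) matches. The DNase I hotspot spanned 53143700 to 53144404, the Benzonase hotspot 53143724 to 53144371 and the Cyanase hotspot 53143708 to 53144362, so the 3 calls nearly coincided.

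Ppara encodes a nuclear receptor for fatty acids. Its window, chr15:85602104-85602403, is in a later intron 34886 bp from a TSS, with Sp1 (CCGCCC), nuclear receptor (AGGTCA) and C/EBP (TTGAGCAA) matches.
Ppara: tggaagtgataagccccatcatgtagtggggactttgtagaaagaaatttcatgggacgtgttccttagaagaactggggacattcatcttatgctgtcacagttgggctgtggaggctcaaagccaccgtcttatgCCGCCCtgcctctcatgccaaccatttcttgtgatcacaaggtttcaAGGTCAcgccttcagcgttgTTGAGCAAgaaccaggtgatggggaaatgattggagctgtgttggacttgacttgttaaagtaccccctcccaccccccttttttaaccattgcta
Nfil3 encodes a bZIP repressor linked to the circadian clock. The window at chr13:53071930-53072229 is in the first intron, 3606 bp from a TSS, and has nuclear receptor (AGGTCA), AP-1 (TGAGTCA) and C/EBP (TTGCTCAA) matches close to its right end.
Nfil3: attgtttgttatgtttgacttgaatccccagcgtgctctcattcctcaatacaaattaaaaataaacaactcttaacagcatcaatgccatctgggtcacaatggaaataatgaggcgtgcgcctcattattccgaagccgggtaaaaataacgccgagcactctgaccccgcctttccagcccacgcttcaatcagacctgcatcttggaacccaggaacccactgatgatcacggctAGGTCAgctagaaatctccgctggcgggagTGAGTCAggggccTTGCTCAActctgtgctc
Plg encodes plasminogen, the precursor of the protease that dissolves fibrin clots. Its window, chr17:12573236-12573535, is in the first intron, 1222 bp from a TSS, and has FOXA (TGTTTAC), nuclear receptor (AGGTCA) and C/EBP (TTGCCTAA) matches.
Plg: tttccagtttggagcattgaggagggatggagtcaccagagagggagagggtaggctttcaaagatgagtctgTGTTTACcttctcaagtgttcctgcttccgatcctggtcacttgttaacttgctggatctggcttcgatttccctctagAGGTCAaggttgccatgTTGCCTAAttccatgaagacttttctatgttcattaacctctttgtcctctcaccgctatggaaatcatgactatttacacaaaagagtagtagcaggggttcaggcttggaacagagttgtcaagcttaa
In these last 3 genes the hotspots of the 3 lists were wide and overlapped over most of their length. In Plg, for example, DNase I covered 12572697 to 12573931, Benzonase 12572806 to 12573944 and Cyanase 12572841 to 12573931. A match is a run of letters in the genome and does not show that a factor was bound.

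Within the shared regions, the extent of the 3 hotspots can be described, although overlap and a limit on width were part of the rule that chose them. Shared intragenic regions were 801 bp wide at the median (quartiles 695 and 1019), and the stretch covered by all 3 lists had a median width of 604 bp, or a median of 75.9% of the region. Such a stretch was present in 13584 regions, and 30 regions were held together by pairwise overlaps alone. A single hotspot of each list was present in 12929 regions. In these, the midpoints of the Benzonase and Cyanase hotspots were a median of 23 bp apart and within 50 bp in 79.3%. DNase I midpoints were a median of 39.5 bp from those of Benzonase and 39 bp from those of Cyanase, and within 50 bp in 59.4% and 60.2%. Widths of the Benzonase and Cyanase hotspots correlated across these regions on the log scale with r = 0.830, against 0.529 for DNase I and Benzonase and 0.507 for DNase I and Cyanase (n = 12929 regions from the same 3 lists, a description). DNase I hotspots were the widest, with medians of 726 bp for DNase I, 686 bp for Benzonase and 658 bp for Cyanase, and a DNase I hotspot alone formed the left end in 50.5% of regions and the right end in 49.9%. At the limits of the rule, the widest region kept had 1999 bp and the narrowest left out 2000 bp, and the region kept nearest to a TSS lay 1005 bp away, against 1000 bp for the nearest left out.

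Motifs of liver factors were more frequent in the shared intragenic regions than in DNA 2500 bp to either side. The nuclear receptor site was present in 35.4% of the 13614 windows of 300 bp and in 18.1% of 22227 flanking windows that touched no hotspot, a difference of 17.3 percentage points (95% Newcombe interval 16.4 to 18.3). The C/EBP motif TTGCNNAA was present in 21.6% against 10.8% (difference 10.8 points, 10.01 to 11.6). FOXA (TGTTTAC) was found in 8.83% against 4.27% (4.56 points, 4.02 to 5.12), and HNF4 (CAAAGTCCA) in 2.55% against 0.346% (2.20 points, 1.94 to 2.49). At least 1 of these 4 motifs was in 55.4% of regions and 30.3% of flanking windows. The difference was 2.62 points (1.98 to 3.27) for AP-1 TGANTCA (11.2% against 8.57%) and 2.22 points (1.56 to 2.90) for the glucocorticoid receptor motif ACANNNTGT (11.8% against 9.62%), both close to that of HNF4 in points and lower relative to the flanks. Smaller differences were seen for the PAR bZIP motif TTANGTAA of clock output factors (4.56% against 3.18%) and CTCF CCANNAGNNGGC (3.20% against 2.36%). The Sp1 GC box GGGCGG, a common promoter element, was in 8.39% against 3.82%. Another 4 motifs were rare. ETS (CCGGAAGT) was in 0.463% of regions and 0.252% of flanks, the SREBP motif ATCACNCCAC in 0.235% and 0.180%, NF1 (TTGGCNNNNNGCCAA) in 0.103% and 0.009%, and HNF1 (GTTAATNATTAAC) in 0.059% of regions and in no flanking window. The SREBP interval included 0 (-0.039 to 0.163 points). These intervals cover counting error only, since regions of 1 set of lists are not replicates, and both strands were searched, so that 1 base could count for more than 1 motif.

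The motifs were concentrated at the centre of the regions. FOXA matches had a density of 401 per Mb in the 50 bp bin just right of the centre and 132 per Mb in the bin centred 975 bp to the left. HNF4 reached 160 per Mb against 10.3, C/EBP 1171 against 419, and the AGGTCA site 1901 per Mb just left of the centre against 693. All 4 curves fell to the level of the surrounding DNA well inside the plotted range, as the plot of matches by distance shows.

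**Figure D1:**
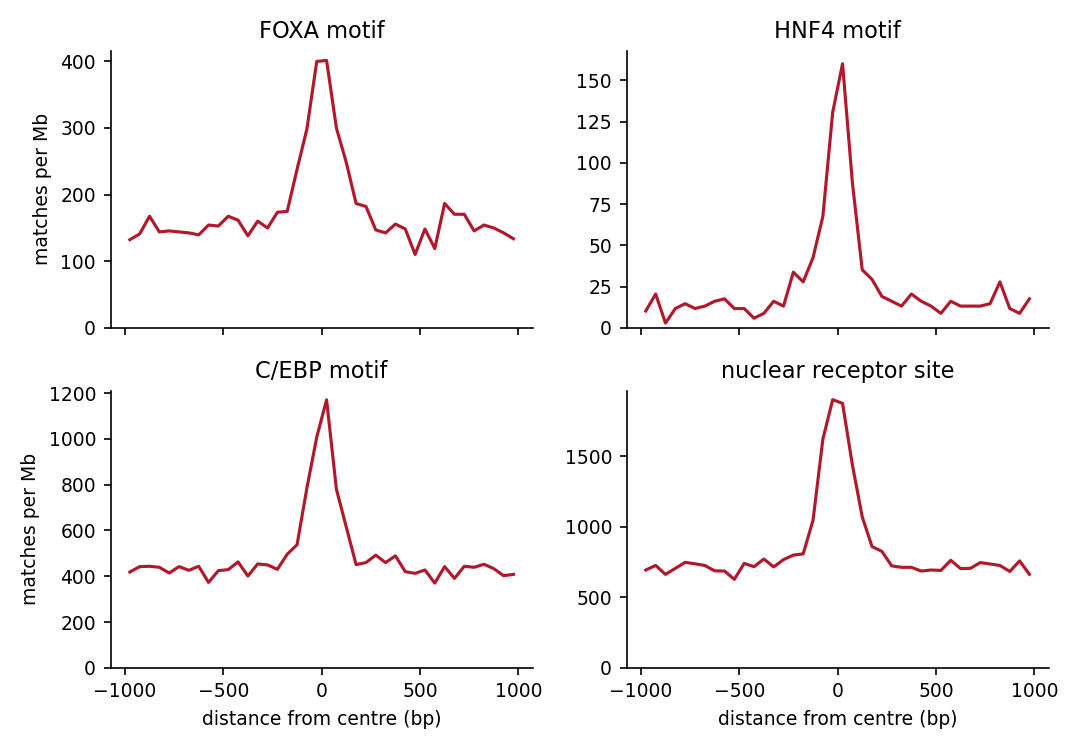
Matches per Mb (vertical axes, each from 0) in 50 bp bins by distance in bp from the centre of the stretch open to all 3 nucleases, for 4 motifs over the 13614 shared intragenic regions. Each curve peaks in the central bins, at 401 per Mb for FOXA, 160 for HNF4, 1171 for C/EBP and 1901 for the nuclear receptor site.

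Intragenic regions found with fewer nucleases carried other shares of these motifs, and they also differed in GC content. In the 12219 intragenic regions with hotspots of DNase I alone, C/EBP (23.9%) and FOXA (9.64%) were more frequent than in the shared regions (shared minus DNase I alone -2.31 points, -3.33 to -1.28, and -0.812 points, -1.52 to -0.105), and the AGGTCA site (30.6%) was less frequent. In the 3552 intragenic regions with Benzonase and Cyanase hotspots and none of DNase I, C/EBP (9.83%), FOXA (3.80%) and HNF4 (0.394%) were near the level of the flanking windows, while Sp1 (17.4%) and CTCF (6.17%) exceeded the shared regions (shared minus these -9.04 points, -10.4 to -7.74, and -2.96 points, -3.85 to -2.16). The AGGTCA site was in 26.5% of these 3552 regions, above the 18.1% of flanking windows. It was less frequent there than in the shared regions (shared minus these 8.93 points, 7.26 to 10.6). Mean GC content of the windows was 49.5% ± 5.83 (SD over windows) for the shared regions, 42.8% ± 5.55 for DNase I alone and 56.0% ± 6.09 for Benzonase and Cyanase. Among windows with 45 to 50% GC, a comparison added with the data in view, the order of the first 2 sets turned for C/EBP, FOXA and PAR bZIP. C/EBP was then in 25.5% of 4372 shared windows and 20.3% of 3071 DNase I windows (difference 5.16 points, 3.23 to 7.07), and FOXA in 10.4% and 7.82% (2.57 points, 1.24 to 3.87). PAR bZIP was in 4.99% and 2.90% (2.09 points, 1.20 to 2.96), against -1.01 points over all windows. The glucocorticoid receptor motif was more frequent in the shared windows (2.46 points, 0.974 to 3.92) and CTCF less frequent (-1.25 points, -2.08 to -0.461). The AGGTCA site (36.4% and 35.3%) and Sp1 (4.21% and 4.33%) no longer differed beyond counting error (intervals -1.16 to 3.26 and -1.08 to 0.798 points). The same held for HNF4 (2.90% and 2.21%, -0.051 to 1.40 points) and AP-1 (11.8% and 13.2%, -2.86 to 0.211 points). Against flanking windows with 45 to 50% GC, the shared regions stayed higher for C/EBP (9.79% in flanks), FOXA (3.77%), HNF4 (2.90% against 0.449%) and the AGGTCA site (20.4%), whereas Sp1 (4.25%) and CTCF (2.40% against 2.56%) did not differ beyond counting error. The 450 Benzonase and Cyanase windows in this GC range had 16.0% with C/EBP and 6.00% with FOXA, both below the shared regions (differences 9.48 points, 5.59 to 12.8, and 4.38 points, 1.65 to 6.45). The glucocorticoid receptor motif (16.9%) and PAR bZIP (7.78%) were in turn more frequent in these 450 windows (shared minus these -3.94 points, -7.80 to -0.603, and -2.79 points, -5.70 to -0.552), the opposite of the order over all windows. Beside flanking windows with 45 to 50% GC, the 450 windows had higher shares of C/EBP (12.9% to 19.7%, against 9.79%) and HNF4 (1.56%, 0.756% to 3.18%, against 0.449%). The AGGTCA site was also higher in them (31.6%, 27.4% to 36.0%, against 20.4%). So were the glucocorticoid receptor motif (13.7% to 20.6%, against 9.21%), PAR bZIP (5.65% to 10.6%, against 1.89%) and CTCF (3.61% to 7.81%, against 2.56%). FOXA was in 6.00% against 3.77%, with Wilson intervals that overlapped narrowly (4.16% to 8.59% against 3.32% to 4.27%). Such overlap does not show that the 2 shares are alike.

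**Figure D2:**
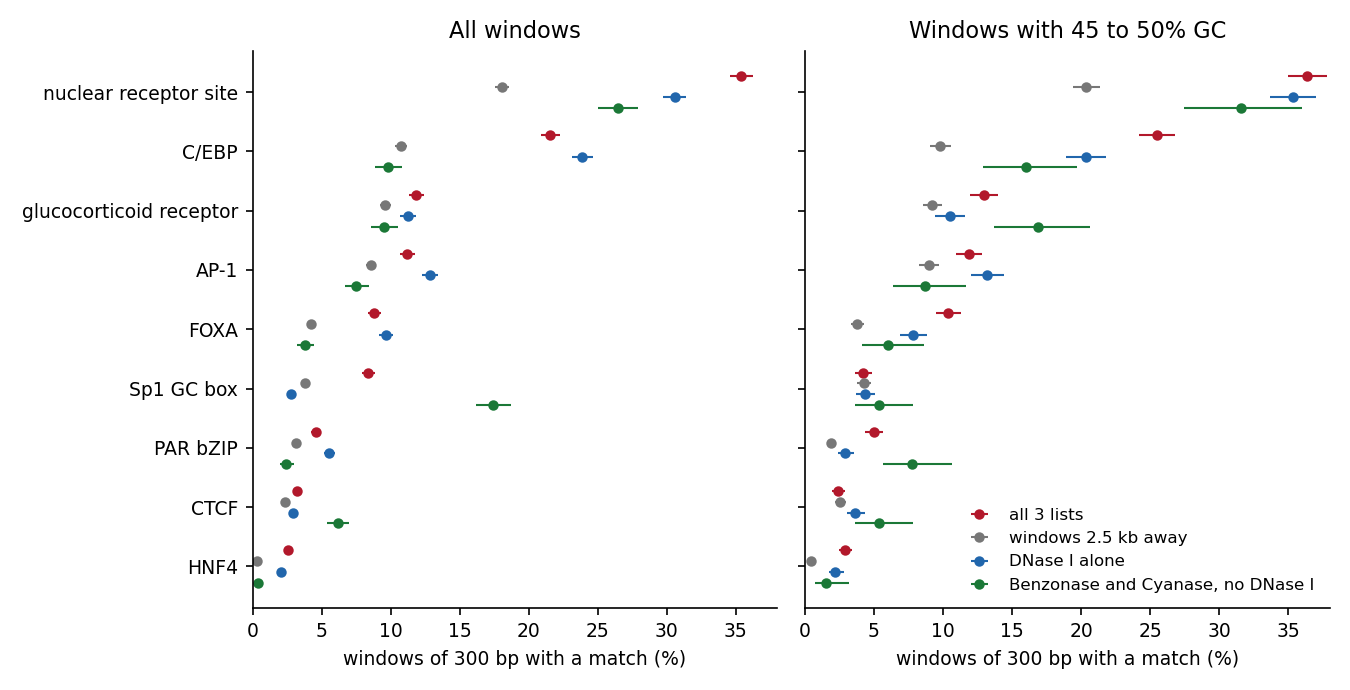
Share of 300 bp windows (horizontal axis, percent, with 95% Wilson intervals) that hold a match to each of 9 motifs, over all windows (left) and windows with 45 to 50% GC (right). In both panels, shared intragenic regions exceed the windows 2500 bp away for C/EBP, FOXA, HNF4 and the nuclear receptor site. They also do so for AP-1, the glucocorticoid receptor motif and PAR bZIP. The Sp1 GC box differs between sets at left and has overlapping intervals at right.

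Regions open to all 3 nucleases outside gene bodies, a set added with the data in view, had a similar motif content. FOXA was in 8.84% of the 11785 intergenic regions (difference -0.013 points, -0.715 to 0.686), C/EBP in 22.5%, HNF4 in 2.77% and the AGGTCA site in 34.3%, each with an interval of the difference that included 0. CTCF (4.09%), AP-1 (12.4%), ETS (0.857%) and Sp1 (10.3%) were more frequent outside genes (shared minus intergenic -0.887 points, -1.36 to -0.426, -1.18 points, -1.98 to -0.383, -0.394 points, -0.603 to -0.196, and -1.94 points, -2.66 to -1.22). Among windows with 45 to 50% GC this held for CTCF (-0.985 points, -1.74 to -0.256) and Sp1 (-1.36 points, -2.32 to -0.426), and the intervals for AP-1 (-2.45 to 0.427) and ETS (-0.223 to 0.343) included 0. The 9010 regions within 1 kb of a TSS were unlike either, with Sp1 in 58.8%, ETS in 8.62%, FOXA in 2.97% and C/EBP in 9.83%. For comparison, 32851 RefSeq promoter windows of the same length, from the GRCm38.p6 table and used for their letters alone, had FOXA in 3.65%, C/EBP in 10.8%, HNF4 in 0.475% and Sp1 in 35.7%. Over all 90879 merged regions the shares were 6.63%, 17.2%, 1.56% and 15.9%.

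Within the shared intragenic regions, 1 kind of motif per window was most common, and several kinds were more frequent than in the flanking windows. Windows held a mean of 1.08 kinds of the 13 motifs, with none in 28.9%, 1 in 41.8%, 2 in 22.3% and 3 or more in the remainder. The flanking windows held a mean of 0.614 kinds, with none in 52.0%, 1 in 36.2%, 2 in 10.2% and 3 in 1.48%. A C/EBP match was in 21.7% of the 1202 regions with a FOXA match and in 21.6% of those without (difference 0.162 points, -2.19 to 2.68). The AGGTCA site was less frequent in regions with an HNF4 match (29.1% of 347) than in those without (35.6%, difference -6.46 points, -11.1 to -1.40) and less frequent beside C/EBP (33.4% against 36.0%, difference -2.57 points, -4.49 to -0.624). Regions centred in coding exons stood apart, with Sp1 in 18.3% (15.2 to 22.0), CTCF in 7.13% (5.17 to 9.75) and FOXA in 5.70% (3.97 to 8.12) of 491 windows, against 7.81%, 2.68% and 8.65% in first introns. Across 3 equal classes of width the motif shares moved without a steady order. FOXA was in 8.37%, 9.65% and 8.46% and HNF4 in 2.20%, 2.71% and 2.73%, C/EBP in 20.1%, 23.5% and 21.0% and the AGGTCA site in 34.8%, 37.2% and 34.3% of the narrowest, middle and widest 4538 regions. Mean GC content was 47.0%, 47.0% and 48.3% (SD across regions 5.02, 5.34 and 5.41), and the share in first introns 42.4%, 39.0% and 39.6%.

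Base composition rose at the centre of the shared intragenic regions. The mean GC content over the whole region was 47.5% ± 5.29 (SD across 13614 regions), and the 5 kb on each side had 45.6%. The difference of 1.86 points (95% interval of the mean 1.79 to 1.92) was positive in 70.3% of regions (69.5% to 71.1%). In 50 bp bins, GC content was 50.1% at the centre and 45.5% at 375 bp to either side. Regions of DNase I alone averaged 42.7% GC and differed from their flanks by -0.662 points, and Benzonase and Cyanase regions without DNase I averaged 54.0% and lay 6.80 points above theirs. The shared regions differed by 4.81 points (4.68 to 4.93) from the first set and by -6.56 points (-6.77 to -6.36) from the second. CpG dinucleotides had a median observed to expected ratio of 0.210. The median was similar in regions of DNase I alone (0.186), of Benzonase and Cyanase without DNase I (0.213) and in intergenic regions open to all 3 nucleases (0.206). The ratio exceeded 0.6 in 145 shared intragenic regions (1.07%), in 3.21% of intergenic regions open to all 3 nucleases and in 62.3% of those near a TSS. Regions in coding exons had the highest GC content (51.9%), followed by UTR exons (49.0%), first introns (47.3%) and later introns (47.2%).

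**Figure D3:**
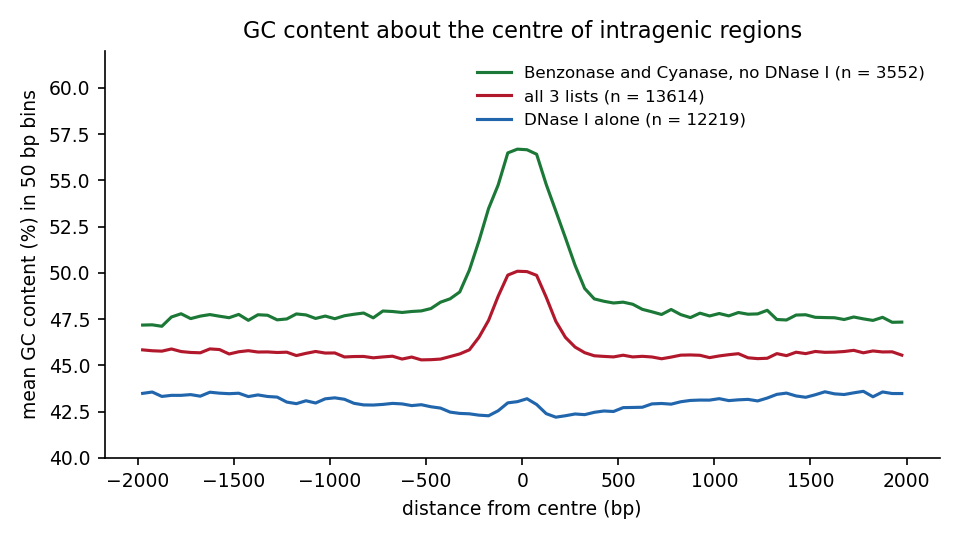
Mean GC content (vertical axis, percent, from 40 upwards) in 50 bp bins by distance in bp from the centre, for 3 sets of intragenic regions. For the shared regions the centre is that of the stretch in all 3 lists, or the midpoint where there was none. The shared regions rise to 50.1% between the curves for Benzonase and Cyanase without DNase I (56.7%) and for DNase I alone (43.0% and 43.2%).

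Shared intragenic regions were densest in first introns and near promoters. By the base at their midpoint, 5490 lay in a first intron (40.3%, Wilson interval 39.5% to 41.2%), 7083 in a later intron (52.0%), 491 in a coding exon (3.61%), 414 in a UTR exon (3.04%) and 136 with the midpoint past the end of the body. Of the eligible bases, 30.5% were in first introns and 63.6% in later introns. The density was 20.05 regions per Mb of first intron and 12.4 per Mb of later intron, with 17.5 in coding exons, 16.8 in UTR exons and 15.2 over all. First introns begin at promoters, and density also fell with distance from a TSS, from 24.6 per Mb at 1 to 5 kb and 20.5 at 5 to 10 kb to 16.5 at 10 to 50 kb and 8.34 beyond 50 kb. Within the bins of distance, a comparison added with the data in view, first introns exceeded later introns at 1 to 5 kb (27.6 against 19.4 per Mb), 5 to 10 kb (25.5 against 16.2) and 10 to 50 kb (20.3 against 14.6), and did not beyond 50 kb (7.89 against 8.31). The median distance to a protein-coding TSS was 15888 bp (quartiles 6216 and 38793.8), and 869 regions (6.38%) lay within 1 kb of the TSS of another kind of transcript, among them 633 near a noncoding transcript of a protein-coding gene, 131 near a long noncoding RNA gene and 38 near a miRNA gene.

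**Figure D4:**
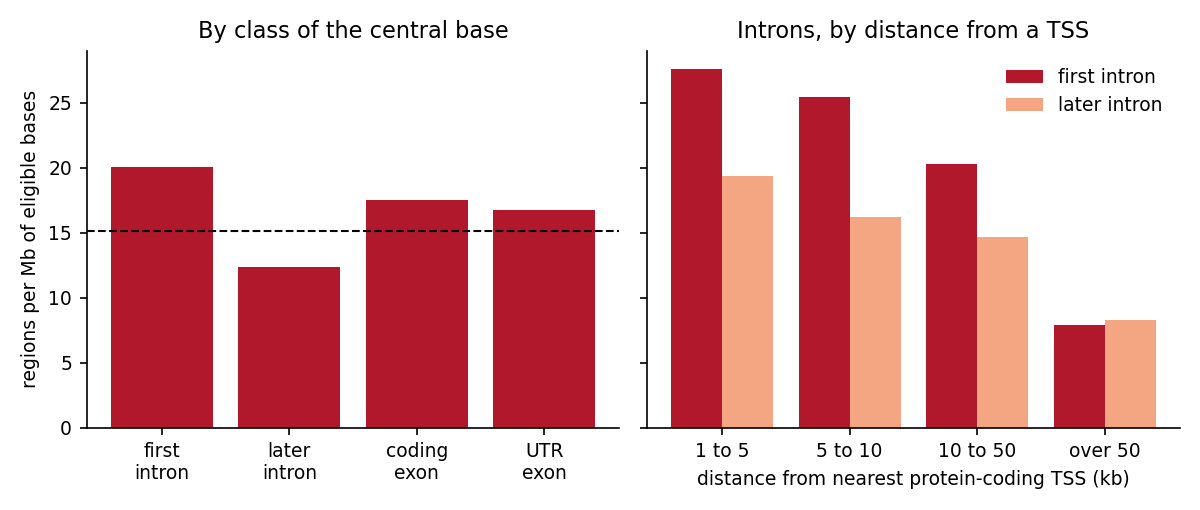
Shared intragenic regions per Mb of eligible bases (vertical axis, from 0) by the class of the base at the midpoint (left, dashed line at 15.2 over all eligible bases) and, for first and later introns, by distance in kb from the nearest protein-coding TSS (right). First introns exceed later introns in the 3 bins up to 50 kb, and beyond 50 kb the bars stand at 7.89 and 8.31.

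Of the other sets of intragenic regions, DNase I alone was placed much like the shared regions, and Benzonase and Cyanase without DNase I differed more. The share in first introns was 40.3% for DNase I alone (difference 0.053 points, -1.15 to 1.25) and 33.2% for Benzonase and Cyanase without DNase I, which was 7.08 points lower than the shared regions (5.31 to 8.82). Coding exons held 2.10% of the DNase I regions and 12.2% of the Benzonase and Cyanase regions, against 3.61% of the shared ones, differences of 1.51 points (1.11 to 1.92) and -8.56 points (-9.71 to -7.47). The shared regions were spread over every autosome, from 12.5 per Mb of eligible bases on chromosome 3 to 20.1 on chromosome 19. The nearest other shared region was a median of 7768 bp away and lay within 5 kb for 39.8% and within 20 kb for 68.9%.

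Most genes held none of these regions and a few held many. None was found in 14177 genes, 1 in 2588, 2 in 1047, 3 to 5 in 1139, 6 to 9 in 358 and 10 or more in 175, and 962 genes held 50% of the 13943 pairs of gene and region. The median eligible body was 16.3 kb over all genes and 46.1 kb in genes with a region. Genes with a protein-coding TSS inside hotspots of all 3 lists had a region in 36.3% (3566 of 9817), against 11.3% of 6917 genes whose TSSs were in no hotspot, a difference of 25.1 points (23.8 to 26.3). The difference was present in each of 3 equal classes of genes by eligible length, at 7.91 points (6.56 to 9.34) in the shortest, 17.6 (15.5 to 19.6) in the middle and 28.9 (26.0 to 31.7) in the longest. Genes with a TSS in hotspots of 1 or 2 lists alone had a region in 35.0% (962 of 2750), close to the share with a TSS in all 3, and in 8.80%, 27.4% and 52.5% of the shortest, middle and longest class, against 10.9%, 29.5% and 59.2% with a TSS in all 3. Density per Mb of eligible body was 22.4 with a TSS in all 3 lists, 10.8 with 1 or 2 and 5.85 with none.

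The highest counts came from long genes. Rora, which encodes a nuclear receptor of the circadian clock, had 32 regions over 729 kb of eligible body (4.39 per 100 kb), of which 25 lay in a first intron. Prkce (protein kinase C epsilon) and Zbtb20 (a zinc finger repressor) had 30 each, Arhgap26 33, Lpp 25, Zmiz1 22, and Sh3pxd2a, Itpr1 and Nfia 21 each. Nfib, like Nfia a gene of the NF1 family, had 20, as did Arid1b (a chromatin remodelling subunit) and Rad51l1. The largest counts, 134 in Gm20388 and 58 in Fgfr2, belonged to transcript models of 4435 and 3009 kb that span 73 and 31 other protein-coding genes, and 21 in Arfip1 to one of 1391 kb that spans 6. When transcripts that span 5 or more other genes were left out, an alternative added with the data in view, Fgfr2 kept 7 regions, Gm20388 and Arfip1 none, and 111 of the 13614 regions were no longer intragenic. By density, among genes with at least 5 regions and at least 20 kb of eligible body, Sdc1 was highest with 8 regions in 21.0 kb (38.1 per 100 kb). Sdc1 encodes syndecan-1, a heparan sulfate proteoglycan of the hepatocyte surface, and 7 of its regions lay in its first intron. Snx18 had 7 (27.6 per 100 kb), Whamm 6 (24.5), A2ld1 5 (23.6), Cdc42ep4 5 (23.5), Gm4951 8 (23.0), Vps37b 6 (22.5), Slc2a1, a glucose transporter, 6 (21.8), Scarb1, the receptor for high-density lipoprotein, 13 (21.7) and Rara, a retinoic acid receptor, 8 (21.0). Under 1000 bp wide, the counts fell by over 1.5 times in Itpr1 (10), Nfib (13), Rad51l1 (12), Snx18 (2), Cdc42ep4 (2), Gm4951 (4), Vps37b (3) and Rara (3), and with hotspots within 150 bp joined they did in A2ld1 (3) and Rara (4). Rara also fell to 5 with hotspots that had to cover 50% of each other. The median was 4.25 per 100 kb among genes with a region and the density 1.53 over all genes.

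Genes of liver function held shared intragenic regions more often and more densely than all genes, for which the count was 27.2%, the median 0 and the density 1.53 per 100 kb. Most genes of these lists had a TSS inside hotspots of all 3 lists. Among all genes with such a TSS, 36.3% had a region and the density was 22.4 per Mb of eligible body. Plasma protein genes were measured through 34 gene models, since Trf has 2, and 22 had a region (64.7%, 47.9% to 78.5%), with a median of 1 and 6.63 per 100 kb. As a check of the tissue, 33 of the 34 had a TSS inside hotspots of all 3 lists. Plg and F5, which encodes a clotting cofactor, had 5 regions each, Gc, the vitamin D carrier, had 4, and Alb, the albumin gene, had 2. The 5 regions of Plg ran from 12572697 to 12609086 on chromosome 17. The AGGTCA site was in 3 of their central windows, and in 35.4% of all shared intragenic regions. No region was found in Apoa1 or Apoe, whose eligible bodies are about 1 kb each, nor in C3, with 23 kb. Under 1000 bp wide, 1 region of Plg was left, and with hotspots within 150 bp joined, Gc had 2.

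Lipid, cholesterol and bile acid genes had a region in 24 of 25 (96.0%, 80.5% to 99.3%), with a median of 2 and 5.35 per 100 kb. Lipc (hepatic lipase) had 11, 10 of them in first introns. Abca1 had 10, Acaca (acetyl-CoA carboxylase) 6 and Abcb4 (the phospholipid pump of bile) 5. Cyp7a1, the rate-limiting enzyme of bile acid synthesis, had 1, and Cyp8b1, with 1 kb of eligible body, had none. Abca1 had 5 under 1000 bp wide.

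Genes of carbohydrate and amino acid metabolism had a region in 18 of 25 (72.0%), with a median of 1 and 5.62 per 100 kb. Ppargc1b had 8, all in first introns, and Fbp1, which encodes the gluconeogenic enzyme fructose-1,6-bisphosphatase, had 5 in 19.7 kb (25.4 per 100 kb). The regions of Fbp1 all lay in the first intron, between 62978560 and 62985910 on chromosome 13, with GC contents from 44.2% to 52.1% beside flanks of 47.3% to 47.9%. Gys2, the liver glycogen synthase, had 4. Pck1, G6pc and Tat, of gluconeogenesis and tyrosine breakdown, had none in 5, 9 and 8 kb of eligible body, and each had a TSS open to all 3 nucleases. Fbp1 had 3 under 1000 bp wide.

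In the list of xenobiotic metabolism and transport, 10 of 16 genes had a region (62.5%), with a median of 1.5 and 4.95 per 100 kb. Ephx1 and Por, which encode epoxide hydrolase and the electron donor of cytochrome P450 enzymes, had 5 each, and Abcc2, an export pump of the bile canaliculus, had 4. Cyp1a2, Cyp2b10 and Cyp2e1 had none. Under 1000 bp wide, Ephx1 had 2, Por 1 and Abcc2 none.

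Liver transcription factors and nuclear receptors had the highest density of the lists, 9.66 per 100 kb, with a region in 18 of 26 genes (69.2%) and a median of 2. Nr5a2 (LRH-1, a regulator of bile acid genes) had 15 in 114 kb (13.2 per 100 kb), 13 of them in later introns. Rxra, the shared partner of many nuclear receptors, had 10 (12.3 per 100 kb) and Prox1, a homeobox factor of hepatocytes, had 8 (16.7 per 100 kb). The Prox1 regions lay between 191948869 and 191992418 on chromosome 1, in later introns except for the last. A FOXA match was in 2 of their 8 windows, and in 8.83% of all shared intragenic regions. Ppara had 6, Hnf4a 4 and Onecut1 3, while the short genes Foxa1, Foxa2 and Cebpb had none.

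Hormone, growth factor and cytokine signalling genes had a region in 20 of 25 (80.0%), with a median of 4 and 6.34 per 100 kb. Ghr, the growth hormone receptor, had 10, and Igf1, its secreted target, had 9 in 74.7 kb (12.0 per 100 kb). The Igf1 regions ran from 87325416 to 87390519 on chromosome 10, 1342 to 65421 bp from a TSS, and their widths ranged from 615 to 1617 bp. Pik3r1, Met (the receptor of hepatocyte growth factor) and Insr (the insulin receptor) had 9 each, Il6ra 8 and Stat5b 6. Among the circadian clock genes 10 of 18 had a region (55.6%), with a median of 1 and 4.35 per 100 kb. Beside Rora these were led by Hlf, a PAR bZIP factor, with 7 (14.4 per 100 kb) and the repressor gene Per2 with 6 (14.2 per 100 kb), while Per1, Nr1d1, Dbp and Tef had none. Counts fell where regions had to be under 1000 bp wide, to 0 in Per2, 4 in Igf1, 6 in Ghr and 21 in Rora, so that all regions of Per2 were wide ones.

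Markers of other cells gave a mixed pattern. All 10 endothelial markers had a region (72.2% to 100% by the Wilson interval), with a median of 2 and 4.33 per 100 kb, although 1 of the 10 had a TSS inside hotspots of all 3 lists and 3 had a TSS in none. Stab2, a scavenger receptor of sinusoidal endothelium, had 11 regions and no hotspot at its TSSs. They lay between 86309603 and 86455986 on chromosome 10, at least 14784 bp from a TSS, 10 of them in later introns, and 6 of the 11 were under 1000 bp wide. Pecam1 had 5, also with no hotspot at a TSS, and Kdr, a receptor of vascular endothelial growth factor, had 4. Macrophage and Kupffer cell markers had a region in 1 of 8 (Csf1r, with 2 regions), with 0.578 per 100 kb, and none of the 8 had a TSS in all 3 lists. Vsig4, the ninth gene of that list, is on chromosome X and was outside the rule. Stellate cell and bile duct markers had a region in 3 of 14 (Reln 2, Acta2 1 and Pdgfra 1), with 0.467 per 100 kb. These counts fell by over 1.5 times under some other settings, to 0 in Reln and Acta2 with hotspots that had to cover 50% of each other, to 0 in Pdgfra with hotspots within 150 bp joined, under 1000 bp wide or over 2 kb from a TSS, and to 1 in Csf1r under 1000 bp wide. In a whole tissue, fewer cells of a type and a less open site in each cell cannot be told apart.

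Genes of other tissues held few regions for their length. Long brain genes had at least 1 in 9 of 14 (64.3%, 38.8% to 83.7%), a share above that of all genes, but the 16 regions were spread over 17008 kb, or 0.094 per 100 kb. Dlgap1 and Ctnna2 had 3 each and Lsamp 2. None of 10 muscle genes, Ttn, Ryr1 and Ckm among them, had a region in 1684 kb, which by the Wilson interval allows a share of genes of up to 27.8%. The share of long brain genes with a region lay within the 55.6% to 96.0% of the liver and clock lists, while their density was far below, as the plot by gene list shows. The lists were chosen with earlier results known and their genes are not a sample, so the intervals cover counting error only.

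**Figure D5:**
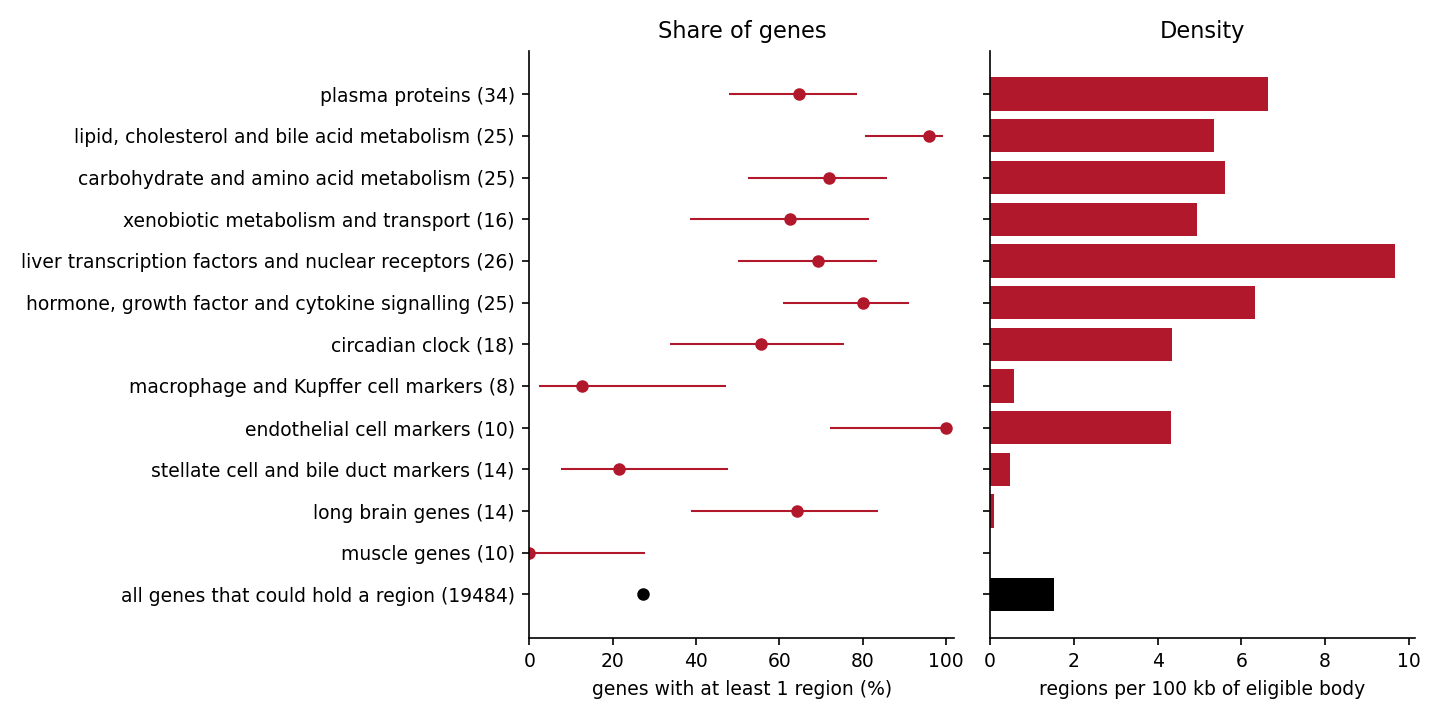
Share of genes with at least 1 shared intragenic region (left, percent, with 95% Wilson intervals) and regions per 100 kb of eligible body (right) for 12 gene lists, with the number of gene models measured in brackets, and for all 19484 genes (black). Liver and clock lists stand at 4.35 (circadian clock) to 9.66 regions per 100 kb and endothelial markers at 4.33, while long brain genes stand at 0.094 and muscle genes at 0.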

How the data were processed

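Alignment to mm9 was by Eland or Bowtie. The authors then pooled by nuclease, adjusted for input and called hotspots with the false discovery rate set to 0%. The deposited lists give hotspot positions without tag numbers or scores, so the depth behind each hotspot and the replicate spread are unknown and concentrations were not compared. Starts were read as counting from 0, and the lists' headers leave this uncertain by 1 base.

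Hotspots on chromosomes 1 to 19 were merged at an overlap of 1 bp and placed on NCBIM37 (mm9) with GENCODE release M1, using transcripts with the biotype protein_coding. A midpoint was classed in the order coding exon, UTR exon, first intron and later intron. Motif windows of 300 bp in the shared regions were centred on the stretch in all 3 lists, or on the midpoint where there was none. Flanking windows were centred on points 2500 bp away. GC flanks were 5 kb on each side. Intervals are Wilson for shares, Newcombe for differences of shares and normal for mean GC, at 95%, and cover counting error or spread across regions. No p-value was computed. Named genes were the 15 with most regions, the 10 densest with at least 5 regions and 20 kb of eligible body, and the 3 leading genes of each list. The 6 sequences exclude chromosome 18, and ties were broken by the width of the stretch in all 3 lists. Other genes of the lists were named after their values were seen. The members, lists and rules were chosen with earlier results of these data known. Merging and motif search were tested on simulated data. Python 3.11.15, numpy 2.4.6, pandas 2.3.3, pysam 0.24.0 and matplotlib 3.10.9 were used. There were 0 columns of other samples. Results for items withheld for evaluation are not reported here.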

Additional observations from a re-analysis of the deposited data

How the results depend on the processing

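Over the 9 other ways of choosing the regions, their number ranged from 10031 (under 1000 bp wide) to 13928 (no limit on width), and the genes with a region from 4574 to 5399. The share in first introns was 38.7% over 2 kb from a TSS, 41.3% with TSSs of every annotated transcript and 39.3% when any exon base decided the class. GC content exceeded that of the flanks by 1.73 points under 1000 bp wide, 4.45 for the central 150 bp and 2.08 against flanks of 1 kb. In windows of 150 bp, which hold fewer bases, FOXA was in 5.29% and HNF4 in 1.83% of regions. Of 143 values of motif shares under other settings, 128 moved by less than their counting error. Of 540 counts in named genes 507 stayed within 1.5 times, and most of the others fell under 1000 bp wide, to 0 in Per2 and Abcc2 and to 1 in Plg and Por. No paired analysis was possible because each list pools its samples. The lists give no depth, so a region missing from a list may have been below its threshold.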

Other observations

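Chromosome X was outside the rule. On it, 158 regions met the other criteria, or 3.70 per Mb of eligible bases, below the 12.5 to 20.1 per Mb of the autosomes in these male mice. They lay in 92 of 850 genes (10.8%) and were 16.4% of the 966 intragenic regions of any combination of lists on that chromosome, against 36.5% on the autosomes.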
